A study of Mus musculus with 9 samples.

Results

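Müller glia are the radial glial cells of the retina. Their cell bodies lie in the inner retina, and their outer processes run between the photoreceptors. They clear glutamate and convert it to glutamine, carry potassium and water, and form new intermediate filaments when the retina is injured. The 6 genes described here are markers of these functions. Slc1a3 encodes the glutamate transporter GLAST and Glul encodes glutamine synthetase. Kcnj10 encodes the inwardly rectifying potassium channel Kir4.1 and Aqp4 the water channel aquaporin 4. Gfap encodes the glial filament protein that rises in gliosis, and Abca8a encodes an ABC lipid transporter. None of them is restricted to Müller glia: astrocytes share most of them, and glutamine synthetase occurs in many tissues. The members were chosen by name, as every probe whose gene name in the deposited files equals one of the 6 symbols. All 6 were on the array, with 9 of its 39429 probes and 6 of its 31829 gene names.

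The arrays compared the choroid (CH), the retinal pigment epithelium (RPE) and the photoreceptors (PR) of female C57BL/6 mice (C57BL/6JOlaHsd by the methods of the study), for which the labels give no treatment, with 3 samples per tissue and 9 arrays in all. The labels give an age of 6 months with a range of 2 weeks for all samples and for the reference, whereas the methods of the study give 5 months. Each sample was laser dissected from 1 eye, and the RPE was taken off before the choroid was cut out. The tissue RNA was amplified and carried the dye Cy5. It was hybridised the same way round on every array, together with an amplified reference pool from mouse RPE and choroid that was labelled with Cy3. The values below are log2(Cy5/Cy3), so that 0 is the level of the reference, and they are set against each other only within a probe. The sources do not say whether the 3 eyes of a tissue came from different mice, and the p-values therefore measure the spread between these samples.

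The tissue labels were checked against marker lists. The PR exceeded both other tissues in all 8 rod and all 7 cone genes, and 7 of 8 RPE genes were called higher in RPE samples than in PR samples, and 5 of 8 than in CH samples. Müller glia were not dissected as a sample of their own, so the members were measured in the 3 layers named. Between 62.0% and 71.2% of spots were well above background in Cy5 on 8 arrays, and 91.6% on the array of RPE replicate 2. In whole dissected layers, fewer cells of a type and less RNA per cell cannot be told apart.

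The probes differ in what they can show. Glul, Slc1a3, Kcnj10 and both Aqp4 probes were well above background in Cy5 on all 9 arrays and saturated on none. Of the 3 Gfap probes, A_52_P52303 was above background on 3 CH, 2 RPE and 2 PR arrays, and the others on 1 RPE array each, that of replicate 2. Abca8a was above background on 1 CH, 1 RPE and 2 PR arrays. The first 30 bases of the 60-base probes are shown for Glul, which carries the largest difference, for Slc1a3, and for the Gfap probes, because their signals disagree. They are written 5′ to 3′ from the deposited files, on assembly mm9. Glul lies at chr1:155756765-155756824 on the plus strand, Slc1a3 at chr15:8584236-8584295 on the minus strand, and the Gfap probes on the minus strand at chr11:102751813-102751872, chr11:102748864-102748923 and chr11:102752726-102752785 in the order shown. Capitals mark a stretch of 12 letters that A_52_P52303 holds from base 13 and again from base 49 to 60.
Glul: cgcttataaatcaacctaacatttataaga
Slc1a3: gtttacccggtgtgatattttttatactaa
Gfap A_52_P52303: ggttatattaacAGAGCTAGCCTAtgctaa
Gfap A_55_P2157250: tttgaggaactgaaacgtgttgtgttcaag
Gfap A_55_P2157245: caaaaggctcacaatacaagttgtcccaat

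Against the reference, most members were low in every tissue. The 7 probes of Slc1a3, Aqp4, Gfap and Kcnj10 had a log2(Cy5/Cy3) below 0 on all 9 arrays. This held for 13.8% of the 38847 probes with a value on every array. It also held for 8 of 13 markers of bipolar, amacrine and ganglion cells, for 6 of 18 other genes of Müller glia, and for 0 of 8 rod and 0 of 8 RPE genes. Since no dyes were swapped, a lower level than in the reference and a dye effect of the probe cannot be told apart. Glul lay near the reference in the CH and the RPE, and the ratios of Abca8a were near 0 from low signals in both channels. The plot of member values by tissue shows both patterns.

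**Figure D1:**
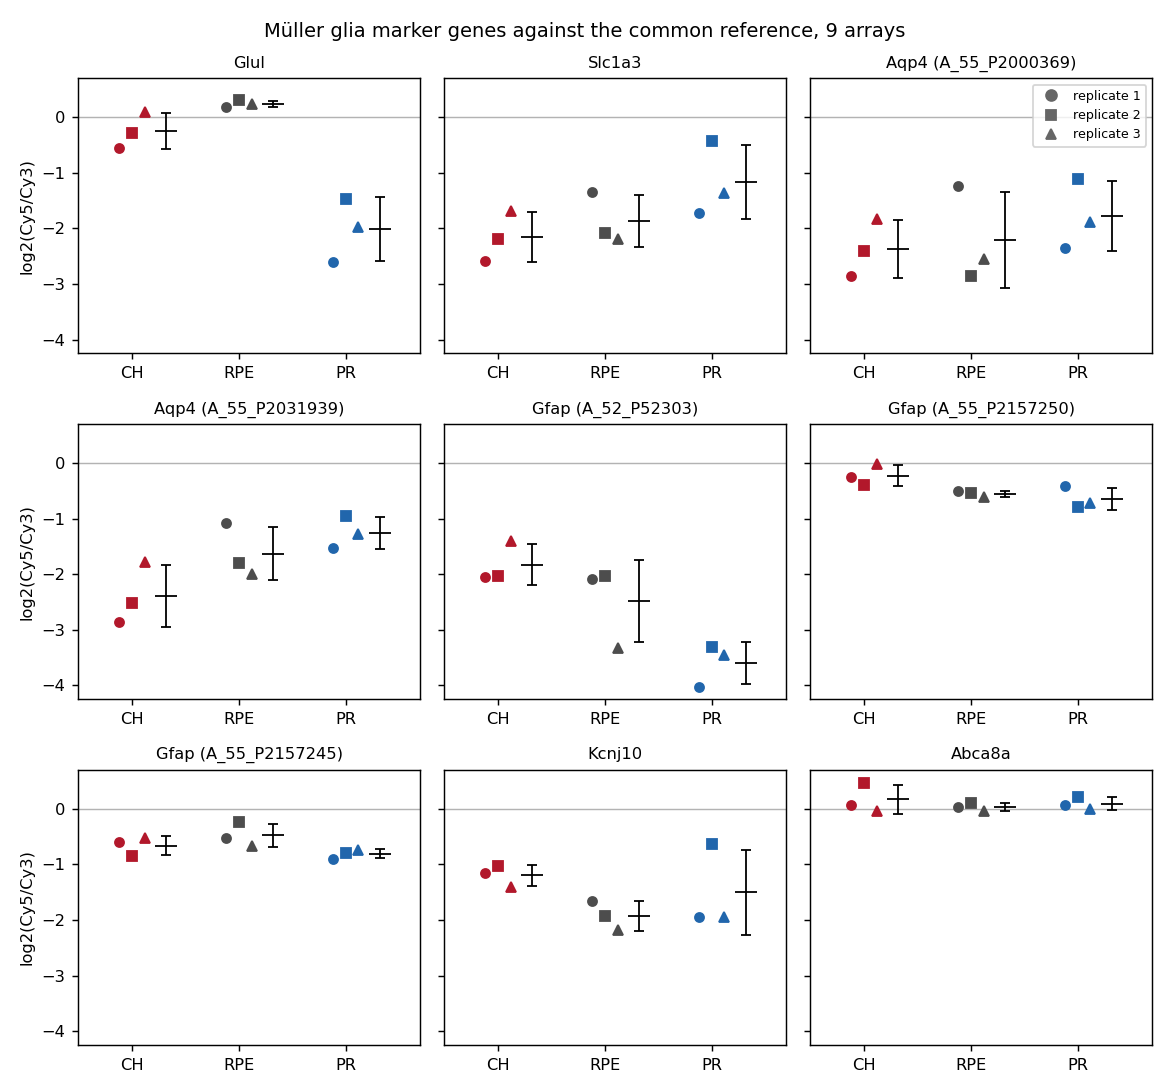
log2(Cy5/Cy3) of the 9 member probes in the CH, the RPE and the PR. Symbols are the arrays of replicates 1, 2 and 3, bars are the mean ± SD (n = 3) and the line at 0 is the common reference. Glul was lowest on the 3 PR arrays, the brightest Gfap probe was at -3.32 or lower on all PR arrays, and Slc1a3, Aqp4 and Kcnj10 overlapped between tissues in at least 1 comparison.

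Calls required a fold change (FC) over 2.5 together with an adjusted p-value under 0.01, and a gene with several probes needed 1 that met both. Between the RPE and the CH, 0 of 6 members were called, with 2.03% of all genes called in this comparison, 0.217% higher and 1.81% lower in the RPE. Unadjusted limma p-values were under 0.05 for 3 of the 9 member probes, those of Kcnj10 (0.0468), Aqp4 A_55_P2031939 (0.0318) and Gfap A_55_P2157250 (0.0298). Over the array, 22.4% of all probes had an adjusted p under 0.05 in this comparison, and no member did. At least that share of all probes therefore had an unadjusted p under 0.05. Between the RPE and the PR, 1 of 6 was called, Glul, which was higher in the RPE. In this comparison 16.9% of all genes were called, 11.2% higher in the RPE and 5.71% lower. Between the PR and the CH, 2 of 6 were called, Glul and Gfap, both lower in the PR. There 20% of all genes were called, 13.2% lower in the PR and 6.92% higher. With 6 members, these counts do not set the group apart from the array as a whole. The median log2 difference of the members' brightest probes was 0.01 for RPE minus CH, -0.24 for RPE minus PR and -0.19 for PR minus CH, beside 0.04, -0.01 and 0.06 over all probes. The comparisons share arrays and are not independent of each other. The shares over all genes given here also stand beside the counts of called genes in the lists below.

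**Figure D2:**
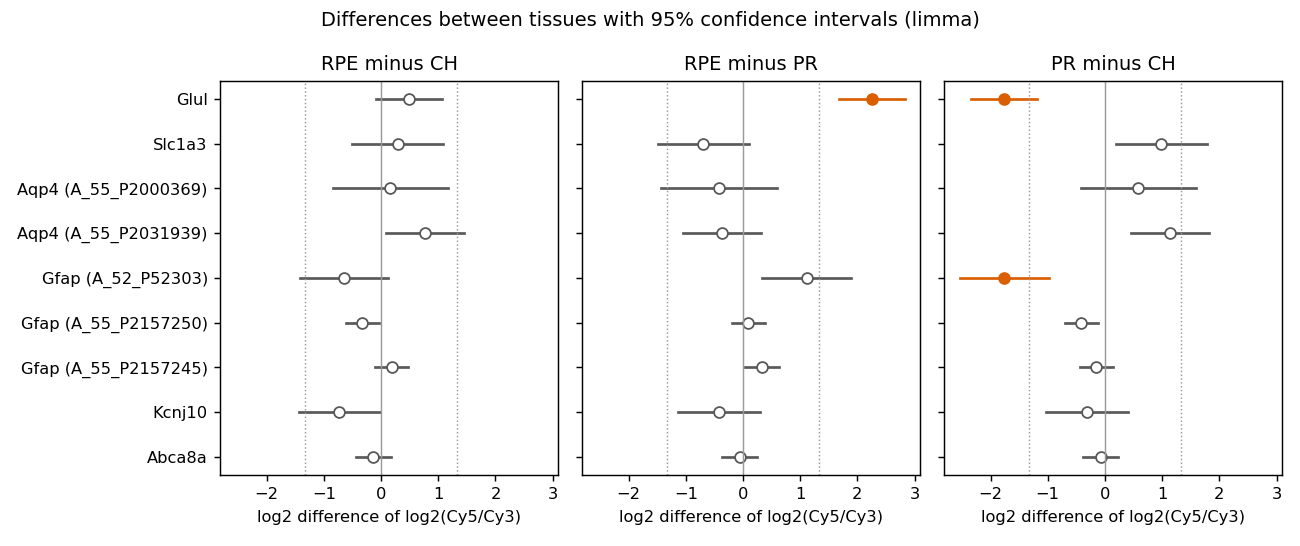
log2 differences of the 9 member probes between tissues with their 95% confidence intervals from limma, in 3 panels. Filled orange points passed both thresholds, open grey points did not, and dotted lines mark an FC of 2.5. Glul passed in the comparisons with the PR, Gfap (A_52_P52303) passed in PR minus CH, and no probe passed in RPE minus CH.

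Glul, the enzyme that makes glutamine from glutamate and ammonia, was lower in the PR than in both outer tissues. Its log2(Cy5/Cy3) was -0.55, -0.29 and 0.09 on the CH arrays, 0.18, 0.30 and 0.23 on the RPE arrays and -2.61, -1.47 and -1.97 on the PR arrays. The highest PR array lay below the lowest CH array, and all RPE arrays lay above all CH arrays by a small margin. Means ± SD (n = 3 each) were 0.24 ± 0.06 for the RPE, -0.25 ± 0.32 for the CH and -2.02 ± 0.57 for the PR. The difference between the RPE and the PR was 2.25 on the log2 scale (SE 0.26, FC 4.77, adjusted p = 4.65e-05 in limma). The difference between the PR and the CH was -1.77 (SE 0.26, FC 3.40, adjusted p = 0.00022, limma). The RPE and the CH, neighbours in this order, differed by 0.49 with a 95% confidence interval from -0.09 to 1.07 (adjusted p = 0.224, limma).

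Both channels contributed to the size of the Glul difference. The scanned Cy5 signal ranged from 264446 to 379256 on the CH and RPE arrays and was 81857, 104114 and 168515 on the PR arrays. The Cy3 signal of the same reference was between 86967 and 113131 on the CH and RPE arrays and was 247646, 178643 and 174178 on the PR arrays. Thus the tissue signal was lower and the reference signal higher on each PR array. After normalization, log2 Cy3 of Glul was 0.62 higher on the PR than on the CH arrays, and 1.34% of 38847 probes had a larger difference in this direction. In Cy5 alone, without the reference, the difference between RPE and PR was 1.42 (adjusted p = 0.000597, limma) and that between PR and CH was -1.21 (adjusted p = 0.0013, limma). The first was past both thresholds and the second did not reach the FC threshold. The part of the reference channel in the result was not tested further. On the 1 slide that held all 3 tissues, the difference was 1.77 between the RPE and PR arrays and -1.18 between the PR and CH arrays, with 1 array each. With the slide as a fixed block, PR minus CH was -1.23 (adjusted p = 0.0158, limma), which was not called, and RPE minus PR was 1.72 (adjusted p = 0.00361, limma), which was.

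**Figure D3:**
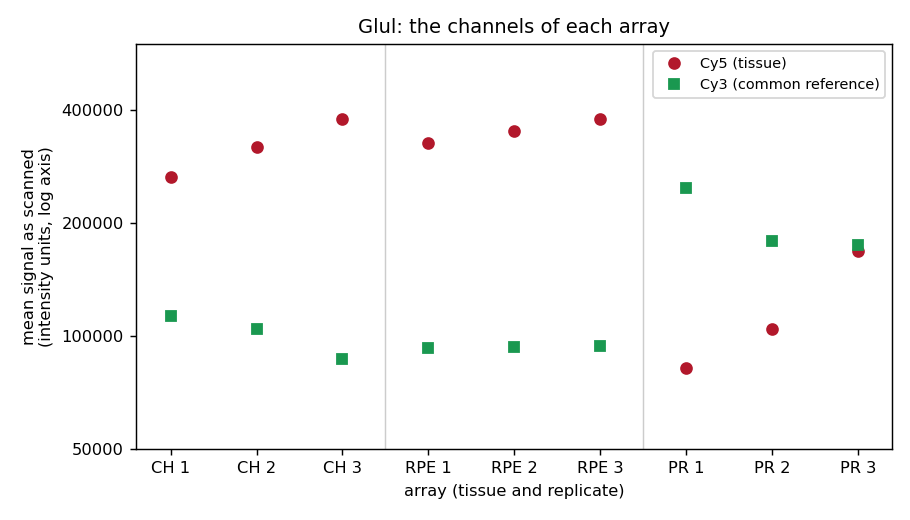
Scanned mean signal of the Glul probe in Cy5 (tissue, red circles) and Cy3 (common reference, green squares) on the 9 arrays, on a log axis. Cy5 was above Cy3 on the CH and RPE arrays, and on the PR arrays Cy5 was lower and Cy3 was higher, which on PR replicate 3 gave 168515 and 174178.

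Slc1a3, which takes up glutamate together with sodium, had its highest mean in the PR. Its log2(Cy5/Cy3) was -2.58, -2.20 and -1.69 on the CH arrays, -1.34, -2.07 and -2.18 on the RPE arrays and -1.73, -0.44 and -1.36 on the PR arrays. PR replicate 2 was the highest array, and the ranges of all 3 tissues overlapped. The PR exceeded the CH by 0.98 (SE 0.35, FC 1.98, adjusted p = 0.0396, limma), which passed neither threshold of the call. Without PR replicate 2 this difference was 0.61 (adjusted p = 0.128, limma), and with the slide as a fixed block it was 1.85 (adjusted p = 0.0103, limma), still not called. In Cy5 alone it was 1.59 (adjusted p = 0.00753, limma) and was called. The RPE lay between, 0.69 below the PR with an interval of RPE minus PR from -1.49 to 0.10 and 0.29 above the CH with an interval from -0.50 to 1.09.

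The other genes of glutamate and glutamine handling moved in both directions, and each had its own tissue. Of 16 listed genes, 6 were higher and 3 lower in the PR than in the CH, and 2 were higher and 4 lower in the RPE than in the PR. The list's median log2 difference was 0.53 for PR minus CH. Slc1a2, the glial glutamate transporter GLT-1 that photoreceptors and bipolar cells also use, had values of -1.07, -0.71 and -0.12 in the CH, 0.33, -0.47 and -0.40 in the RPE and 2.08 and 2.68 in the PR, where the spot of replicate 3 carried an outlier mark and was dropped. It was 3.02 higher in the PR than in the CH (SE 0.33, adjusted p = 5.39e-05, limma). Slc1a7, the transporter EAAT5 of photoreceptor terminals, was 3.92 higher in the PR than in the CH (adjusted p = 1.38e-07). So was Slc17a7, the vesicular glutamate transporter, by 2.68. Slc1a1, the transporter EAAC1, was highest in the RPE, 1.38 above the CH (adjusted p = 0.00316) and 4.64 above the PR. The call against the CH was lost in 4 of 9 fits with an array left out (1.21 without CH replicate 1, 1.23 without CH replicate 2, 1.26 without RPE replicate 2 and 1.40 without RPE replicate 3) and in 6 of 18 other alternatives for Slc1a1. Slc38a3, a glutamine transporter, was 1.88 higher in the PR than in the CH.

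No difference in Kcnj10 was called, and its PR arrays disagreed. Its log2(Cy5/Cy3) was -1.15, -1.03 and -1.40 on the CH arrays, -1.65, -1.93 and -2.19 on the RPE arrays and -1.95, -0.63 and -1.94 on the PR arrays. All CH arrays lay above all RPE arrays, while PR replicate 2 lay above every other array and the remaining PR arrays among those of the RPE. The SD was 0.19 in the CH, 0.27 in the RPE and 0.76 in the PR (n = 3 each). The RPE was 0.73 below the CH (SE 0.32, adjusted p = 0.142, limma), with a confidence interval from -1.44 to -0.01. PR minus CH was -0.31, from -1.03 to 0.40, and RPE minus PR was -0.42, from -1.13 to 0.30. Without PR replicate 2 the PR was 0.75 below the CH (adjusted p = 0.00458, limma; FC under 2.5) and the difference between RPE and PR was 0.02. With the slide as a fixed block, PR minus CH turned to 0.49 (adjusted p = 0.145, limma) and RPE minus PR was -1.22 (adjusted p = 0.0046, limma; FC under 2.5). On the slide with all 3 tissues, RPE minus PR was -1.30 and PR minus CH 0.41, with 1 array each.

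Aqp4 was measured by 2 probes on chromosome 18, which differed in spread. On the brighter probe, A_55_P2000369, log2(Cy5/Cy3) was -2.86, -2.41 and -1.83 on the CH arrays, -1.23, -2.85 and -2.54 on the RPE arrays and -2.36, -1.11 and -1.89 on the PR arrays. RPE replicate 1 and PR replicate 2 stood above the other arrays of their tissue, and all 3 tissues overlapped. PR minus CH was 0.58, from -0.43 to 1.59 (adjusted p = 0.312, limma), and with the slide as a fixed block it was 1.60 (adjusted p = 0.075, limma). On A_55_P2031939 the values were -2.86, -2.52 and -1.79 in the CH, -1.09, -1.79 and -2.005 in the RPE and -1.53, -0.96 and -1.28 in the PR. Here all PR arrays lay above all CH arrays. The difference was 1.13 (SE 0.30, adjusted p = 0.0096, limma) with an FC of 2.20, under the threshold, so it was not called. Without CH replicate 3 it was 1.44 (adjusted p = 0.00175, limma) and was called. It was also called from the processed signals (1.56), from the deposited log ratio (1.56) and in Cy5 alone (1.56). It stayed uncalled in 12 of 17 alternatives of processing or threshold. With an array left out it stayed uncalled in 8 of 9 fits, with 0.90 as the lowest difference. The probes had a Pearson correlation of 0.80 over the 9 arrays.

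Slc1a3 and Aqp4 followed each other from array to array. Over the 9 arrays, the correlation of Slc1a3 with the brighter Aqp4 probe was 0.90, the highest among the 15 pairs of members. Among 17943 genes above background on all arrays, Mlc1 was the most similar to Slc1a3 (r = 0.96) and the next after Fezf2 (r = 0.96) to Aqp4 (r = 0.95). Mlc1 encodes a membrane protein of astrocyte and Müller glia endfeet. Its values were -2.79, -2.49 and -1.71 in the CH, -0.94, -2.23 and -2.21 in the RPE and -1.83, -0.62 and -1.41 in the PR. CH replicate 3, RPE replicate 1 and PR replicate 2 were the highest of their tissue for Slc1a3, both Aqp4 probes and Mlc1. Mlc1 was not called in any comparison, with 1.04 for PR minus CH (adjusted p = 0.0621, limma) and 2.01 with the slide as a fixed block (adjusted p = 0.0247, limma). The points share arrays, amplification and slide, and r is given as a description. The remaining similar genes were Aars and Gars for Slc1a3, both tRNA synthetases, and Col2a1, a collagen gene, for Aqp4.

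**Figure D4:**
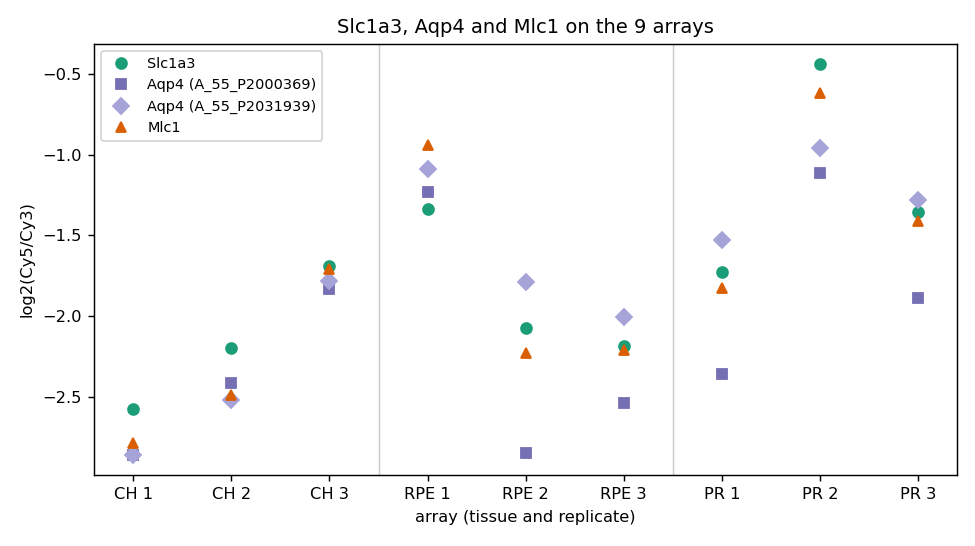
log2(Cy5/Cy3) of Slc1a3, both Aqp4 probes and Mlc1 on the 9 arrays, in order of tissue and replicate. CH replicate 3, RPE replicate 1 and PR replicate 2 were highest within their tissue for all 4 probes, with PR replicate 2 between -1.11 and -0.44.

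The markers of bipolar, amacrine and ganglion cells, which are neurons of the inner retina, were also set beside these arrays. The summed Cy5 level of 13 such genes was 199015, 205708 and 218544 on CH replicates 1, 2 and 3, 224626, 205465 and 193904 on the RPE replicates and 149577, 210038 and 142814 on the PR replicates. CH replicate 3, RPE replicate 1 and PR replicate 2 had the highest sums of their tissues. Gene by gene, 11 of 13 were highest in RPE replicate 1 among the RPE arrays and 11 of 13 in PR replicate 2 among the PR arrays, whereas 8 of 13 were lowest in CH replicate 3 among the CH arrays. Of the 13 genes, 2 were higher and 3 lower in the PR than in the CH, and 0 were called between the RPE and the CH. The part of inner retinal cells in the spread of Slc1a3, Aqp4 and Kcnj10 was not tested.

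Of 19 other potassium and water channels and proteins of the dystrophin anchor, which holds Kir4.1 and aquaporin 4 at the endfeet, 4 were lower and 1 higher in the PR than in the CH, and 3 were higher and 1 lower in the RPE than in the PR. Over all genes, 13.2% were called lower and 6.92% higher in the PR than in the CH. For the RPE against the PR these shares were 11.2% higher and 5.71% lower. The list's median PR minus CH was -0.01. Dmd, the dystrophin gene, was the 1 called higher, 2.26 higher in the PR than in the CH (adjusted p = 7.8e-07, limma). Dag1, the dystroglycan that links dystrophin to the matrix, fell by 2.16 from the CH to the PR, and its extracellular ligand Agrn fell by 3.06. Kcnj13, the Kir7.1 channel of the RPE, fell by 5.79 from the CH to the PR on a probe saturated on 2 arrays, and its other probe was called higher in RPE than in CH samples. Kcnj16, the partner of Kir4.1 in heteromeric channels, was not well above background on any array.

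Gfap had its highest mean in the CH and its lowest in the PR on its brightest probe, which was dim. The scanned Cy5 signal of this probe on the PR arrays was 153, 222 and 360, beside array medians of 668, 617 and 963. It was well above background on 3 CH, 2 RPE and 2 PR arrays, so the PR level is close to background. On A_52_P52303, log2(Cy5/Cy3) was -2.06, -2.03 and -1.40 on the CH arrays, -2.09, -2.03 and -3.32 on the RPE arrays and -4.02, -3.32 and -3.45 on the PR arrays. RPE replicates 1 and 2 lay at the level of the CH, and RPE replicate 3 lay at that of the PR. All PR arrays lay below all CH arrays. Means ± SD (n = 3 each) were -1.83 ± 0.37 for the CH, -2.48 ± 0.73 for the RPE and -3.59 ± 0.37 for the PR. PR minus CH was -1.76 (SE 0.35, FC 3.39, adjusted p = 0.00159, limma). With the slide as a fixed block it was -1.61 (adjusted p = 0.0537, limma) and was not called. The RPE exceeded the PR by 1.11 (SE 0.35, adjusted p = 0.022, limma), which was not called. Without RPE replicate 3 this difference was 1.54 (adjusted p = 0.000939, limma) and was called. The RPE and the CH differed by -0.65, with an interval from -1.43 to 0.13.

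The other Gfap probes were close to background. The values of A_55_P2157250 lay between -0.79 and -0.03 and those of A_55_P2157245 between -0.90 and -0.25. For A_55_P2157250, PR minus CH was -0.42 (adjusted p = 0.0197, limma). For A_55_P2157245 it was -0.15 (adjusted p = 0.375, limma). Both were not well above background on any CH or PR array, so that these differences carry no measured level. When the 3 probes were averaged, PR minus CH was -0.78 and was not called. The Gfap call therefore rests on 1 probe.

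Most astrocyte and Schwann cell markers were, like Gfap and Glul, lower in the PR than in the CH. Of 9 astrocyte markers, 6 were lower and 1 higher in the PR than in the CH, and 2 were lower in the RPE than in the CH. Their summed Cy5 level ranged from 326114 to 387228 for the CH, from 212783 to 252436 for the RPE and from 155598 to 184971 for the PR. S100b fell by 4.67 and the astrocyte connexin Gjb6 fell by 5.38 from the CH to the PR. Aldoc, the 1 called higher, rose by 1.83 (adjusted p = 0.000143, limma). Of 10 Schwann cell markers, 6 were lower in the PR than in the CH and 2 lower in the RPE than in the CH. Their sum ranged from 203283 to 241080 for the CH, from 127206 to 148549 for the RPE and from 25055 to 28948 for the PR. Sox10, the regulator of Schwann cells and melanocytes, fell by 2.96 from the CH to the PR. The astrocyte gene Ntsr2 was above background on 0 CH arrays and the Schwann cell gene Cdh19 on 0 PR arrays. RPE replicate 3, low in Gfap, had the highest summed level of 7 lens markers, 1907620, beside 540188 and 498720 in the other RPE samples. The lens sums were 876334, 996537 and 75079 on CH replicates 1, 2 and 3 and 650476, 496775 and 977614 on the PR replicates. The part of these cells in the results for Gfap and Glul was not tested.

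Of 13 other filament and gliosis genes, 8 were lower in the PR than in the CH and 0 were higher, with a median of -1.64. In the RPE, 4 were higher than in the PR and 0 lower. Vim, the filament protein that glia share with fibroblasts and endothelium, was 1.30, 1.13 and 0.60 in the CH, -0.31, -0.58 and 0.09 in the RPE and -2.62, -2.67 and -2.39 in the PR. The tissues did not overlap. PR minus CH was -3.57 (adjusted p = 3.19e-07, limma), and RPE minus CH was -1.27 (adjusted p = 0.00236, limma), short of the FC threshold. Nes, the filament of progenitor and endothelial cells, fell by 2.03 from the CH to the PR and Osmr, a cytokine receptor, fell by 4.80. All 6 fibroblast markers and 6 of 7 endothelial markers were also lower in the PR than in the CH, and their part was not tested.

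Abca8a had ratios near 0 in all tissues, from low signals in both channels. Its values were 0.07, 0.47 and -0.04 in the CH, 0.03, 0.10 and -0.04 in the RPE and 0.06, 0.21 and -0.01 in the PR. The tissues overlapped. RPE minus CH was -0.14, from -0.44 to 0.17, and PR minus CH was -0.08, from -0.38 to 0.23. Cy5 was above background on 4 of 9 arrays and Cy3 on 5 of 9. The ratios therefore do not give the level of Abca8a against the reference, and no difference was detectable. Of its 4 relatives in the same gene cluster, 3 were above background on all arrays and Abca6 on 1 RPE array. Abca8b was lower on all RPE than on all CH arrays, with a difference of -1.15 (SE 0.16, adjusted p = 0.00108, limma) that did not reach the FC threshold. Abca9 fell by 2.45 from the CH to the PR (adjusted p = 6.44e-06, limma) and exceeded its PR level by 1.67 in the RPE. Of the 4 relatives listed, 1 was called between the PR and the CH, and 0 between the RPE and the CH.

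Genes that are also used as markers of Müller glia moved in both directions. Of 18 such genes, 9 were lower and 3 higher in the PR than in the CH, with a median of -1.51. In the RPE, 9 were higher and 3 lower than in the PR, and 3 were higher and 1 lower than in the CH. Rlbp1, the retinaldehyde-binding protein that the RPE also makes, had values of 0.23, 0.08 and 1.12 in the CH, 2.31, 2.56 and 1.84 in the RPE and -3.57, -2.77 and -2.98 in the PR. Its RPE level exceeded the PR level by 5.34 (adjusted p = 3.59e-07, limma). Sox9, a glial transcription factor also present in the RPE, had an RPE level 4.88 above that of the PR (adjusted p = 1.21e-07, limma). For RPE minus PR, Hes1, an effector of Notch, had 3.74 and its relative Hes5 had -1.81. Rax, a homeobox gene of the retina, and Car2, a carbonic anhydrase, exceeded their CH levels in the PR by 3.08 and 2.49. Dkk3, a secreted relative of Wnt inhibitors, was highest in the CH, with RPE minus CH of -1.45 (adjusted p = 0.0048, limma). In Cy5 alone this value of Dkk3 was -0.76 (adjusted p = 0.105, limma), and the call was lost in 4 of 9 fits with an array left out, those without CH replicate 1, CH replicate 2, RPE replicate 2 or RPE replicate 3. The summed Cy5 level of the 8 RPE markers ranged from 1989340 to 2186330 for the RPE, from 1501830 to 1837000 for the CH and from 276256 to 395298 for the PR. The part of RPE cells in these differences was not tested.

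**Figure D5:**
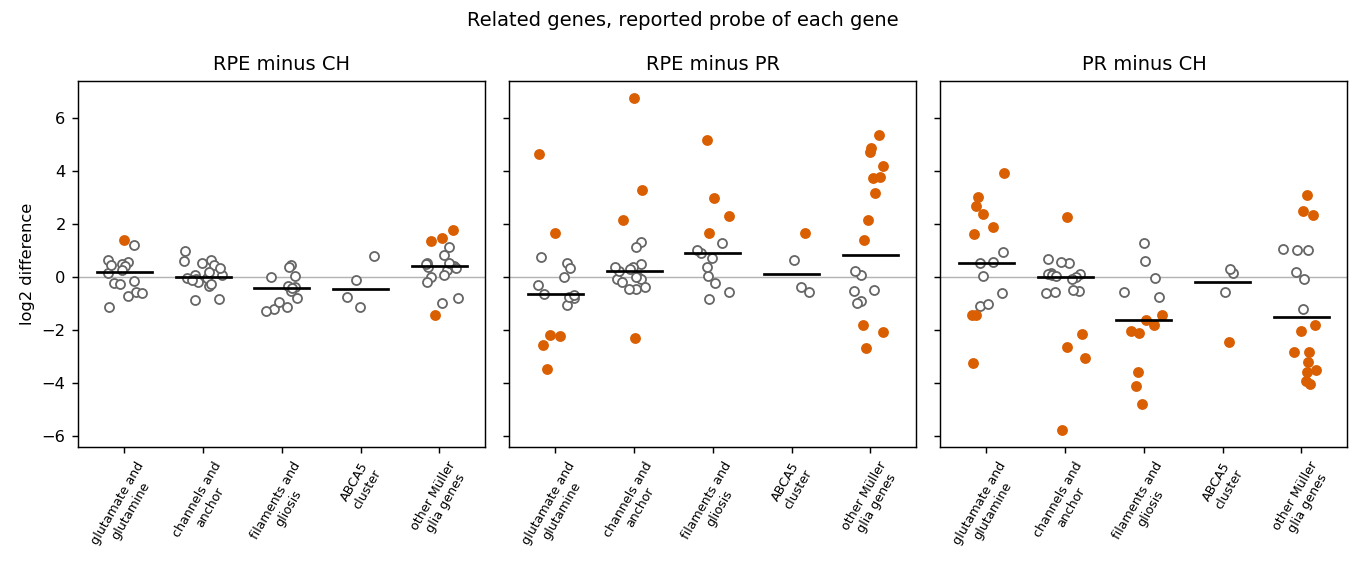
log2 differences of 70 related genes in 5 lists at the brightest probe of each gene, in 3 panels for RPE minus CH, RPE minus PR and PR minus CH. Filled orange points were called at that probe, open points were not, and black bars are the list medians. The filament list lies mostly below 0 in PR minus CH (median -1.64) and the glutamate list spreads to both sides (median 0.53).

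The remaining genes closest to a member over the 9 arrays were Fam19a5, Nudt11 and Sorl1 for Glul (r = 0.99 each), for which RPE minus PR was 2.19, 2.42 and 4.10 on the log2 scale. For Gfap they were Nutf2, Arhgef19 and Pcdhb21, with r of 0.97, 0.96 and 0.94. For Kcnj10 they were Gm6616, Gm4191 and LOC100046325 (r from 0.96 to 0.97), gene models of unsure identity. For Abca8a, at its low signal, they were Rad18, Khsrp and 2010315B03Rik (r from 0.94 to 0.95). Glul and Gfap, which shared the low PR arrays, had an r of 0.77.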

How the data were processed

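The authors deposited the Feature Extraction (9.5.3.1) output of 9 dual-colour arrays and a series table. The mean signals and median local backgrounds used here are intensity values as scanned. The deposited processed signals (intensity), the deposited log10 ratios and the authors' series table, which holds log2 values that follow Cy5 (r from 0.985 to 0.999 per array), were used only as alternatives. The authors imported the arrays into R 2.14.0 and fitted limma with the reference as the common channel, and the normalization method behind the series table is not given in the sources used here.

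Background was corrected by normexp (offset 50), log2(Cy5/Cy3) was normalized by loess within arrays, controls and spots with an outlier mark (228 to 586 per array) were dropped, and spots of a probe were averaged. No member value was dropped. Tissue means were fitted to all 9 arrays with limma 3.58.1 in R 4.3.3, with Benjamini-Hochberg adjustment over 39429 probes. The fit was also run on simulated data with independent noise, shifts in the RPE only and no slide effect. That run cannot show how far tissue and slide are separated in these arrays. Summed marker levels are sums of linear Cy5 after loess and Aquantile over the brightest probe of each gene. Figures used Python with matplotlib 3.10.9. The number of arrays limits the precision.

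All member probes are reported, and a gene's values are those of its brightest probe. For each member the 3 genes with the highest r over the arrays are named. From the related lists, called genes and set partners may be named, and a few items are not reported here. Members and lists were chosen with earlier results of these data known. RefSeq names (GRCm38.p6) matched 9 of 9 member probes by accession. Arrays were processed on 3 slides, and alternatives changed the background correction, normalization, signal columns, thresholds, probe rule, slide block, replicate block and each array left out.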

Additional observations from a re-analysis of the deposited data

How the results depend on the processing

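Among the member counts, RPE against CH stayed at 0 under every alternative run. RPE against PR (1) became 2 at an adjusted p under 0.05 without a fold threshold and ranged from 1 to 2 with an array left out. That threshold called 50.3% of all probes between RPE and PR and 53.8% between PR and CH. PR against CH (2) became 4 under that threshold, 1 with the authors' series table (Gfap), 1 with the mean of a gene's probes (Glul) and 0 with the slide as a fixed block, and ranged from 2 to 3 with an array left out. It was 3 with a fold threshold of 2 and from the processed signals, both with Aqp4 added, and 3 in Cy5 alone (Slc1a3, Aqp4 and Gfap). In that order, these settings called 25.5%, 24% and 19.5% of all probes between PR and CH. Only slide 2 held PR beside other arrays. With the replicate block the counts were 0, 1 and 2, as without it. After removal of tissue means, r was -0.08 to 0.29 for same-number arrays and -0.31 to 0.25 for different numbers. These ranges overlap and do not settle whether same-number samples are paired. All arrays of replicate 2 were also on slide 2, so number and slide cannot be told apart there. Of the member differences 676 kept direction and call, 18 reversed, 11 gained and 6 lost the call; of the related genes named, 2113, 5, 27 and 39. The causes were not tested.

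For RPE minus CH, median centring gave -0.11 for Aqp4 (A_55_P2000369), and the mean of probes gave 0.075 for Dmd. For RPE minus PR, Abca8a was 0.019 with median centring and 0.0046 with the slide block. There Cy5 alone gave -0.14 for Gfap (A_55_P2157250) and -0.27 for Kcnj16, and the series table -0.047 and -0.15. For PR minus CH, Abca8a was 0.11 from the processed signals and from the deposited log ratio, 0.23 in Cy5 alone and 0.18 in the series table. There Cy5 alone gave 0.0021 for Gfap (A_55_P2157245) and 0.073 for Kcnj10, which the slide block put at 0.49. With an array left out, RPE minus CH ranged from -0.33 to 0.48 for Aqp4 (A_55_P2000369), from -0.24 to 0.017 for Abca8a and from -0.058 to 0.013 for Dmd. RPE minus PR ranged from -0.64 to 0.021 for Kcnj10 and from -0.11 to 0.00096 for Abca8a, and PR minus CH from -0.18 to 0.077 for Abca8a.

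Of 684 probes called between RPE and CH, 10.7% were higher in the RPE, against 1.1% of 1182 with median centring and 4.23% to 17.3% with an array left out; the series table called 405. Among called probes the share higher in the RPE than the PR was 66.3%, and 53% in Cy5 alone. The share higher in the PR than the CH was 34.8%, and 46.8% with the deposited log ratio. The low signal of Abca8a and of the Gfap probes limits their differences.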
